A study of Gallus gallus with 6 samples.

Results

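The respiratory chain genes of the chicken array were taken by the symbol the platform annotation gives each probe set (the group of short probes that measures 1 transcript): NDUFA, NDUFB, NDUFC, NDUFS or NDUFV with a number, SDHA to SDHD, any symbol starting with UQCR, CYC1, any starting with COX4 to COX8, and any starting with ATP5. Assembly factors were left out. This gave 65 genes of the 13009 that had 1 symbol, measured by 117 of the 38382 chicken probe sets. Where a gene had several probe sets, the brightest on average over the 6 arrays stands for it. There were 33 genes of complex I, 2 of complex II, 8 of complex III, 8 of complex IV and 14 of complex V. SDHB, SDHC and CYC1 were not found under those symbols, and 0 of the genes encoded on mitochondrial DNA were found under theirs. By symbol the rule also took NDUFA4, which in mammals was later assigned to complex IV and is counted here in complex I. It also took COX7A2L, which in mammals links complexes III and IV, and ATP5S, a factor associated with ATP synthase.

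The respiratory chain sits in the inner mitochondrial membrane. Complex I (NADH dehydrogenase) and complex II (succinate dehydrogenase) pass electrons to ubiquinone, complex III (the cytochrome bc1 complex) passes them on to cytochrome c, and complex IV (cytochrome c oxidase) hands them to oxygen. Complexes I, III and IV pump protons, and complex V (ATP synthase) uses the proton gradient to make ATP. Except for complex II, each complex also holds subunits encoded in mitochondria, so its assembly needs both genomes. Neural crest cells leave the dorsal neural tube, migrate, and give rise to peripheral neurons and glia, pigment cells and much of the face.

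The cells were neural crest cultures grown from neural tube explants of stage 9+ chicken embryos. After 4 hours in culture, 3 control samples received media and 3 received homocysteine, a sulphur amino acid formed from methionine, at 100 uM, for 6 hours. Total RNA of each sample was put on a 1-colour Affymetrix chicken array. The labels number the arrays 1 to 3 in each group, and do not say how many explants went into an array or whether arrays came from separate cultures, so p-values measure only the spread between these samples. The deposited values are linear intensity values, and changes are given as differences of log2 intensity. A probe set's background on an array was taken as the 95th percentile of 57 reporter sets (exogenous sequences), which lay between 53.2 and 84.9.

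The arrays numbered 1, control and homocysteine, differed from the other 4 in several ways. For ACTB the 5′ probe set read 0.0572 times the 3′ set on control 1 and 0.0590 times on homocysteine 1, and 0.238 to 0.421 times on the other 4 arrays. For GAPDH this ratio was 0.302 and 0.311, against 0.445 to 0.655. All 5 neural crest markers (SOX10, FOXD3, SNAI2, TFAP2A and ETS1) were above background on all 6 arrays. Their summed intensity was 5625 and 5979 on the arrays numbered 1, against 11010 to 12184 on the others. The 5 neuronal markers were also above background on all 6 arrays, with sums of 16356 to 20187. Of these 5, 2 were lowest and 2 highest on both arrays numbered 1. On control 1 single markers ran from 7.91% to 198% of the other 2 controls (mean taken in log2). On homocysteine 1 they ran from 21.6% to 163% of the other 2 homocysteine arrays. The surface ectoderm markers CDH1 and EPCAM were above background on all 6 arrays too, with sums of 4095 to 10188. Of 4 muscle markers 1 was above background on all 6 arrays and 3 on 0 arrays. Of 4 blood markers 0 were above it on all 6 and 1 (HBA1) on 0 arrays, HBE was above it on 5, and the sums were 143 to 281. Of 4 mesoderm markers MEOX1 and TBXT were above it on all 6 arrays and TBX6 and TCF15 on 0, with sums of 552 to 1671. Since the arrays measured RNA of whole cultures, fewer cells of a type and less RNA per cell cannot be told apart. The low 5′ to 3′ ratios fell on the same arrays as the low neural crest sums. Their part in those sums was not tested.

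Transcripts of the chain were detected nearly throughout. Of the 65 genes, 63 were above background on all 6 arrays: 33 of 33 in complex I, 2 of 2 in complex II, 8 of 8 in complex III, 7 of 8 in complex IV and 13 of 14 in complex V. COX7B, a small structural subunit of complex IV, read 6.1, 4.1 and 2.2 on control arrays 1, 2 and 3 and 48.1, 61.9 and 10.4 on homocysteine arrays 1, 2 and 3, below background on every array. ATP5G2, 1 of 3 genes for the c subunit that forms the rotating ring of ATP synthase, read 58.1, 113 and 4.1 in control and 92.9, 88.7 and 47.8 with homocysteine. It was above background on 4 arrays, 2 in each group. The counts and medians below that rest on genes above background cover the other 63.

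Homocysteine changed no respiratory chain gene past the threshold. Each gene was tested with limma, p-values were adjusted by Benjamini-Hochberg across the 38382 probe sets, and 0 of 65 genes had an adjusted p of at most 0.05, as did 0% of all probe sets (0 of 38382, with 1524 at an unadjusted p under 0.05). At an unadjusted p under 0.05 there was 1 member, COX7B, beside 2.26% of the 13009 genes. Among genes above background on all 6 arrays few reached this, 6 of 7925 and 0 of the 63 members. A count of 0 in the members therefore says little. The groups of COX7B did not overlap, with an unadjusted p of 0.00831 and an adjusted p of 0.925 by limma. It was below background in both groups, so no fold is given. The adjusted p of the remaining members was 1.00. None of the 63 genes above background had groups without overlap, 0 higher and 0 lower with homocysteine, against 1.75% and 1.64% of the 7925 genes above background on all 6 arrays.

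**Figure D1:**
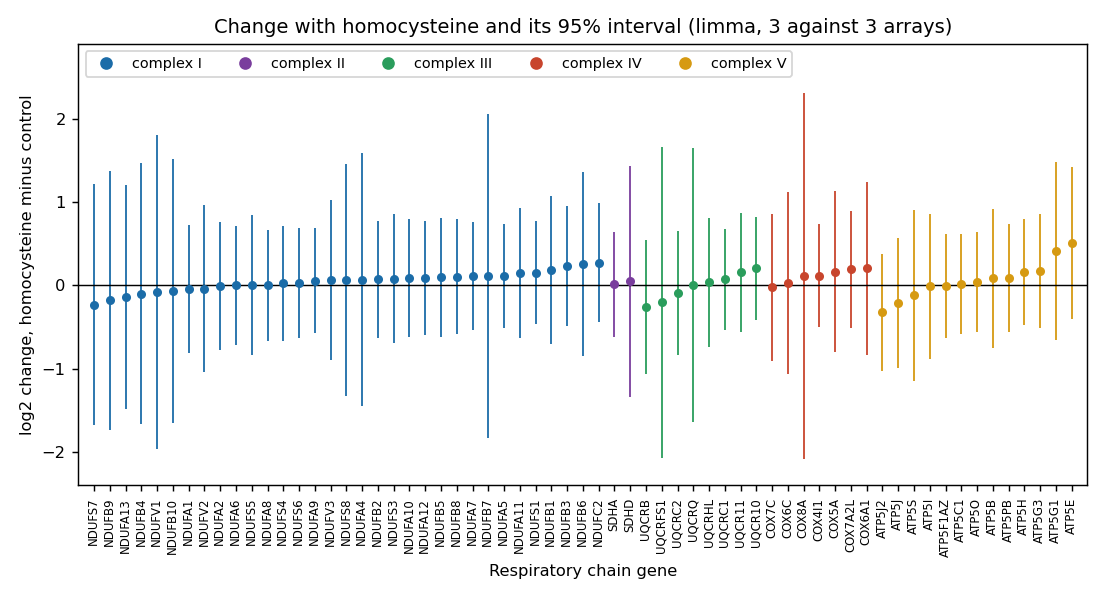
Log2 change of each of the 63 respiratory chain genes above background on all 6 arrays (homocysteine minus control, points) with its 95% interval from limma (lines), coloured and ordered by complex. Every interval includes 0, and the widest belongs to COX8A, from -2.09 to 2.32.

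The changes were small and mostly on the positive side as the values were deposited. Of the 63 genes, 45 had a positive log2 change and 18 a negative one, with a median of 0.06 (range -0.32 to 0.51). The median over all 7925 genes above background was 0.0036, with 50.9% positive. By complex the median was 0.06 in complex I (24 of 33 positive), 0.03 in complex II (2 of 2), 0.02 in complex III (5 of 8), 0.12 in complex IV (6 of 7) and 0.04 in complex V (8 of 13). The split depended on scaling. With arrays centred on their medians 33 were positive and 30 negative, with a median of 0.0060. With quantile normalization 38 were positive and 25 negative. Over all 13009 genes 51.6% were positive as deposited (median 0.0084). That share was 41.4% with centring (median -0.047) and 51.8% with quantile normalization (median 0.0096), so centring lowered the genes at large as well. Centring turned the medians of complexes II, III and V to -0.02, -0.03 and -0.01, and leaving out 1 array at a time moved the median across 0 in complexes I to IV. The split also moved with single arrays. Over all 65 genes 72.3% were positive, with 38.5% without control 1, 46.2% without homocysteine 2 and 89.2% without homocysteine 1. Leaving out only 1 array numbered 1 kept the other in its group, and most members were low on both. With both left out, 40 of the 63 genes were positive, with a median of 0.07. Over all genes above background 48.8% were then positive, with a median of -0.0074. In the fit without a block the 95% interval of the median gene extended 0.77 (log2) above and below its change. Shifts of the size seen here were thus not detectable gene by gene in that fit. It counts differences shared by same-numbered arrays as error. With the replicate number as a block the smallest unadjusted p of the 63 by limma was 0.146, against 0.222 without it.

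Complex I takes electrons from NADH on its matrix arm and pumps protons in its membrane arm. NDUFV1, the subunit that binds NADH and flavin mononucleotide, had intensities of 1567, 7285 and 5485 in control and 1882, 7492 and 3764 with homocysteine. The array numbered 1 was the lowest in each group, and the groups overlapped. The mean ± SD over 3 arrays was 4779 ± 2923 for control and 4379 ± 2855 for homocysteine, so log2 intensity changed by -0.08, and the 95% interval ran between -1.97 and 1.81. NDUFS1, the large iron-sulphur subunit of the same arm, was steadier, at 7570, 8393 and 8576 in control and 8762, 8555 and 10017 with homocysteine. Homocysteine 1 and 3 were above every control array and homocysteine 2 was not, and the change was 0.15 (-0.47 to 0.77).

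Among the accessory subunits of complex I, the largest changes were in NDUFC2 and NDUFB6, both of the membrane arm. NDUFC2 read 7787, 9623 and 9771 in control and 8887, 11038 and 13221 with homocysteine, a change of 0.27 (-0.44 to 0.99). Each homocysteine array was above the control array of the same number, while the groups overlapped. NDUFB6 read 1853, 4156 and 3265 in control and 2283, 4468 and 4193 with homocysteine, a change of 0.26 (-0.85 to 1.36), again with the arrays numbered 1 lowest. NDUFB7, another membrane arm subunit, had the largest spread of complex I, with an SD of 1.01 in log2 over the 6 arrays. It read 689, 3103 and 1454 in control and 678, 3447 and 1677 with homocysteine, and its arrays numbered 1 were the lowest. NDUFA9, which lies near the ubiquinone site, had the smallest spread of complex I (SD 0.12). It read 8989, 10030 and 9902 in control and 9455, 11336 and 9395 with homocysteine, a change of 0.06 (-0.57 to 0.69). NDUFA11, which helps hold the membrane arm together, read 7864, 11475 and 10224 in control and 8547, 10807 and 13612 with homocysteine, a change of 0.15 (-0.63 to 0.93).

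Complex II oxidizes succinate and is shared with the tricarboxylic acid cycle. SDHA, its flavoprotein that binds succinate, read 8026, 6491 and 6607 in control and 7461, 6974 and 6815 with homocysteine. The arrays numbered 1 were the highest of the 6, and the change was 0.01 (-0.62 to 0.64). SDHD, which anchors the complex in the membrane, read 1774, 5070 and 4422 in control and 2053, 5212 and 4132 with homocysteine. Here the arrays numbered 1 were the lowest, and the change was 0.05 (-1.34 to 1.44). The SD over the 6 arrays was 0.12 in log2 for SDHA and 0.68 for SDHD.

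Complex III carries its electrons through an iron-sulphur protein, cytochrome b and cytochrome c1. UQCRFS1, the Rieske iron-sulphur subunit, read 657, 2303 and 2193 in control and 637, 3011 and 1133 with homocysteine, with the largest spread of the complex (SD 0.97 in log2). Its change was -0.20 (-2.07 to 1.67), and the arrays numbered 1 were the lowest. UQCRC1, a core protein of the complex, read 14879, 14818 and 13947 in control and 14366, 15883 and 15639 with homocysteine, an SD of 0.07 in log2 and a change of 0.07 (-0.53 to 0.67). UQCRB, which contacts ubiquinone, had the largest change of the complex at -0.26 (-1.07 to 0.55). It read 1530, 854 and 1216 in control and 907, 885 and 1156 with homocysteine, with control 1 the highest. UQCR10, a small subunit, read 16224, 18669 and 17246 in control and 18472, 20006 and 21608 with homocysteine. Homocysteine 2 and 3 exceeded every control array, homocysteine 1 did not exceed control 2, and the change was 0.20 (-0.41 to 0.82).

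In complex IV the nuclear genes encode the subunits around the catalytic core. COX4I1, the largest of them, read 24069, 25077 and 22730 in control and 23513, 27457 and 27106 with homocysteine, a change of 0.12 (-0.50 to 0.73). COX5A, a subunit on the matrix side, was measured at a low level, at 212, 451 and 417 in control and 314, 397 and 451 with homocysteine. Control 1 was the lowest array, and the change was 0.16 (-0.80 to 1.13). Besides COX4I1, the families with tissue-type isoforms gave 3 genes above background. COX6A1, the broadly expressed form of subunit VIa, read 5067, 9604 and 9265 in control and 5873, 11570 and 10142 with homocysteine, a change of 0.20 (-0.83 to 1.24). COX7A2L read 9103, 7677 and 6108 in control and 9187, 9101 and 7611 with homocysteine, a change of 0.19 (-0.51 to 0.90), with the arrays numbered 1 the highest. COX8A, a small membrane subunit, had the widest spread of all 63 genes, with an SD of 1.16 in log2. It read 931, 5090 and 4407 in control and 1148, 5779 and 3984 with homocysteine, a change of 0.11, and the arrays numbered 1 were far below the other 4.

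Complex V combines a catalytic head, a stalk and a membrane ring. ATP5B, the beta subunit that makes ATP, read 9899, 15688 and 14286 in control and 10552, 17457 and 14336 with homocysteine, with the arrays numbered 1 lowest and a change of 0.08 (-0.75 to 0.92). ATP5F1AZ, the alpha subunit gene of the Z chromosome, read 18434, 19877 and 19298 in control and 16676, 20825 and 19957 with homocysteine, a change of -0.01 (-0.64 to 0.62). Birds carry a similar copy on W, and the array may not separate the pair. ATP5O, the stalk subunit that confers oligomycin sensitivity, read 13632, 14075 and 13091 in control and 14307, 14286 and 13389 with homocysteine. It had the smallest spread of the 63 genes (SD 0.05 in log2), and its change was 0.04 (-0.56 to 0.64).

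The membrane ring is built from copies of the c subunit. ATP5G1, a second gene for the c subunit, read 3291, 7879 and 6218 in control and 5379, 9308 and 7674 with homocysteine, a change of 0.42 (-0.65 to 1.49). Each homocysteine array was above the control array of its number, with control 1 the lowest of all. The third c subunit gene, ATP5G3, read 16735, 22627 and 20235 in control and 18959, 24582 and 23370 with homocysteine, a change of 0.17 (-0.52 to 0.85). For ATP5G2 no fold is given, since it was not above background on 1 array of each group. ATP5E, the epsilon subunit, was close to background, at 143, 105 and 128 in control and 171, 262 and 122 with homocysteine. Its change of 0.51 (-0.40 to 1.42), the largest positive of the 63, had homocysteine 2 as its high array. ATP5J2, a subunit of the membrane part, had the largest negative change of the 63, -0.32 (-1.03 to 0.38). It read 240, 306 and 302 in control and 195, 276 and 211 with homocysteine.

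The members differed most between the arrays numbered 1 and the other 4. In 38 of the 63 genes both arrays numbered 1 were below the other 4, against 25.2% of the genes above background. In 3 genes (NDUFS3, SDHA and COX7A2L) both were above the other 4, against 23.9%. By complex both were lowest in 22 of 33 genes of complex I, 1 of 2 of complex II, 4 of 8 of complex III, 5 of 7 of complex IV and 6 of 13 of complex V. Within complex I they were lowest in 8 of 10 NDUFB genes, 3 of 3 NDUFV genes, 7 of 12 NDUFA genes and 3 of 7 NDUFS genes. The count of 38 became 34 when arrays were centred on their medians and 39 after quantile normalization.

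**Figure D2:**
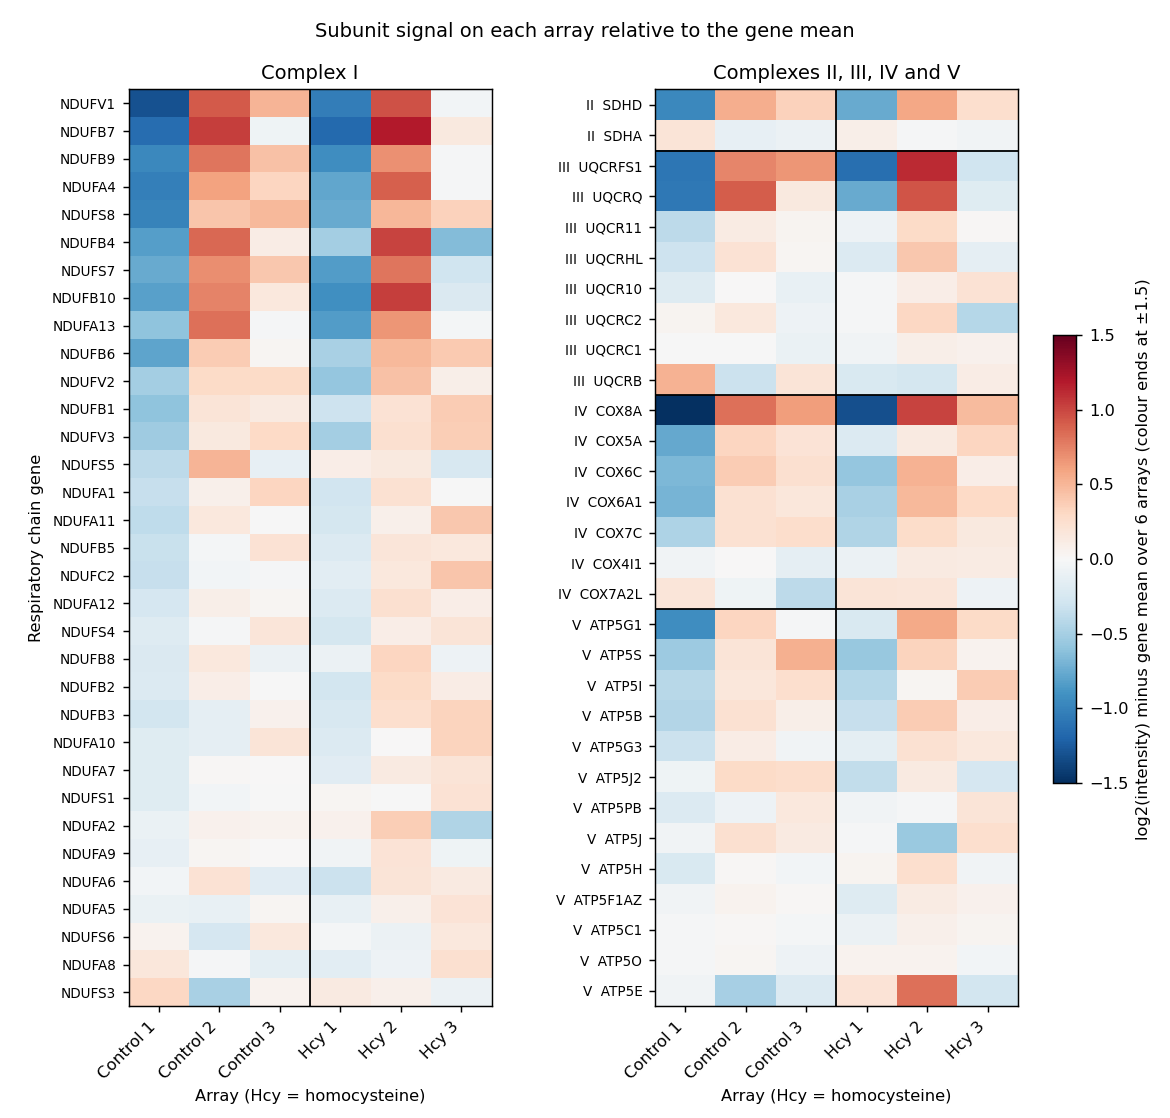
Log2 intensity on each array minus the gene's mean over the 6 arrays, for the 63 genes above background (rows, by complex) and the 6 arrays (columns, Hcy for homocysteine), with blue below and red above the mean and colours ending at 1.5. The columns of control 1 and homocysteine 1 are blue for most genes and deepest for NDUFV1, NDUFB7, UQCRFS1 and COX8A, while rows such as ATP5O and UQCRC1 are nearly white throughout.

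The drop on the arrays numbered 1 ran from several-fold to none within a complex. In control the array numbered 1 stood at a median of 78.2% of the other 2 arrays over the 63 genes (19.7% to 150%). With homocysteine it stood at 76.1% (23.9% to 111%). For these percentages the mean of the other 2 arrays was taken in log2. Over all genes above background these medians were 99.2% and 99.8%. COX8A stood at 19.7% and 23.9%, NDUFV1 at 24.8% and 35.4%, NDUFB7 at 32.4% and 28.2%, UQCRFS1 at 29.2% and 34.5%, and SDHD at 37.5% and 44.2%. Beside them ATP5O stood at 100% and 103%, UQCRC1 at 103% and 91.2%, COX4I1 at 101% and 86.2% and SDHA at 123% and 108%. Both arrays were under 50% in 12 of 63 genes, against 4.77% of the genes above background. The 12 were NDUFA4, NDUFA13, NDUFB7, NDUFB9, NDUFB10, NDUFS7, NDUFS8, NDUFV1, SDHD, UQCRFS1, UQCRQ and COX8A. By symbol 8 of the 12, NDUFA4 included, were counted in complex I and 0 in complex V. They include the core iron-sulphur subunits NDUFS7 and NDUFS8, which lead to ubiquinone.

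Genes with a deep drop on control 1 also had a deep one on homocysteine 1. Across the 63 genes the log2 difference of control 1 from controls 2 and 3 correlated with that of homocysteine 1 from homocysteine 2 and 3 at a Pearson r of 0.912, as a description across genes that share the same 6 arrays. Over all 7925 genes above background it was 0.805. The ACTB and GAPDH ratios and the sum of neural crest markers were low on these same arrays, and their part in the drop was not tested. In the other lists both arrays were under 50% in 4 of 10 genes of the tricarboxylic acid cycle, 2 of 13 of glycolysis, 2 of 13 electron carriers and feeding dehydrogenases, 3 of 33 assembly factors and 1 of 9 regulators of mitochondrial genes above background, beside the same 4.77%. On the arrays numbered 1 the medians in control and with homocysteine were 68.5% and 63.7% for the cycle and 84.8% and 67.4% for glycolysis. They were 69.7% and 70.7% for carriers and dehydrogenases, 77.3% and 86.0% for assembly factors, and 114% and 110% for regulators.

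**Figure D3:**
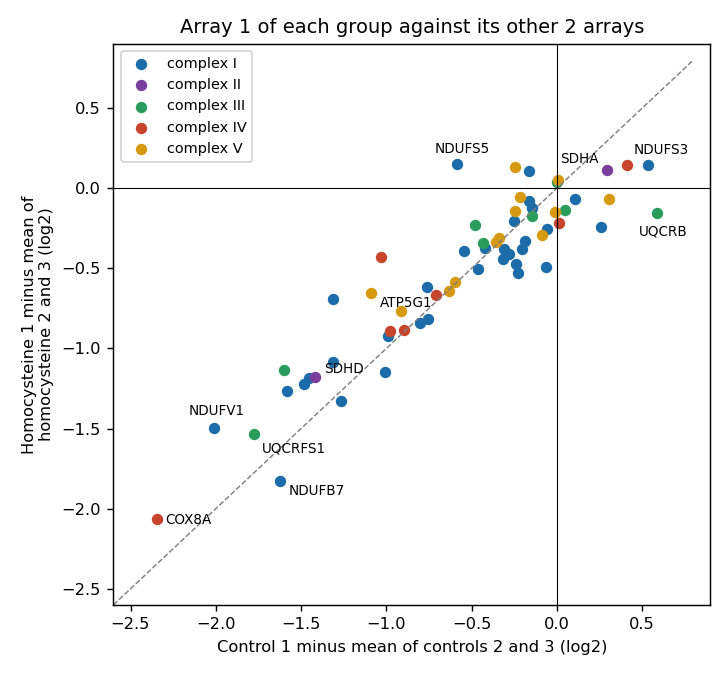
Log2 intensity of control 1 minus the mean of controls 2 and 3 (horizontal axis) against homocysteine 1 minus the mean of homocysteine 2 and 3 (vertical axis), for the 63 genes above background, coloured by complex, with the dashed line marking equal values. Most points run along the line from COX8A at the lower left to SDHA and NDUFS3 at the upper right. Some lie off it with opposite signs in the groups, such as UQCRB (0.59 in control, -0.16 with homocysteine) and NDUFS5 (-0.59 and 0.15).

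The spread over the 6 arrays differed between complexes and within them. The median SD of log2 was 0.27 over the 63 genes, close to the 0.29 of all genes above background. It was 0.27 in complex I, 0.40 in complex II, 0.26 in complex III, 0.42 in complex IV and 0.27 in complex V. The tails were filled at both ends: 13 of the 63 lay above the 90th percentile of all genes (0.58), 9 of them in complex I and 0 in complex V, and 9 lay below the 10th percentile (0.13), 3 of them in complex I and 3 in complex V. Among the steadiest were ATP5O, ATP5C1 (the central stalk's gamma subunit, SD 0.06), UQCRC1 and COX4I1. With both arrays numbered 1 left out, the median SD fell to 0.18 over the 63 genes and to 0.22 over all genes above background. It was then 0.20 in complex I, 0.10 in complex II, 0.25 in complex III and 0.14 in complexes IV and V. On those 4 arrays 40 of the 63 changes with homocysteine were positive, with a median of 0.07, beside 48.8% and -0.0074 over all genes above background.

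Set side by side by number, the arrays differed in how many genes were higher with homocysteine. In the arrays numbered 1, 39 of the 63 genes were higher with homocysteine (median log2 difference 0.05), in those numbered 2, 53 were (0.13), and in those numbered 3, 34 were (0.02). Over all genes above background the median differences were 0.01, 0.02 and -0.02, with 51.4%, 52.9% and 47.0% higher with homocysteine. With arrays centred on their medians the counts were 21, 35 and 42, and with quantile normalization 37, 52 and 27, so which number had the most positive genes changed with the scaling. Counts by number over all genes were not made under these 2 scalings. In complex III the number 2 arrays had 8 of 8 genes higher with homocysteine and the number 3 arrays 2 of 8. With arrays centred on their medians each had 4 of 8, and with quantile normalization they had 8 of 8 and 3 of 8. UQCRFS1 read 2303 in control and 3011 with homocysteine for number 2, and 2193 and 1133 for number 3. Of the arrays not numbered 1, homocysteine 3 had the lowest 5′ to 3′ ratios (0.238 for ACTB and 0.445 for GAPDH). Control 3 had 0.287 and 0.634. The part of these ratios in the number 3 differences was not tested.

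As deposited, 17 of the 63 genes were higher with homocysteine in all 3 numbers, against 12.2% of all genes above background. In all 3 numbers 2 were lower (NDUFA13 and ATP5J2), against 12.5%. These counts were not made under the other scalings, which moved the counts per number. The 17 held 9 genes of complex I (NDUFC2, NDUFB6 and NDUFS1 among them), UQCR10, COX6A1, COX7A2L and 5 of complex V (ATP5B, ATP5G1, ATP5G3, ATP5O and ATP5PB, the peripheral stalk's b subunit). The differences within these were small for most. For ATP5O they were 0.07, 0.02 and 0.03 and for UQCR10 0.19, 0.10 and 0.33 in log2. Another ATP5O set above background on all 6 arrays was lower in all 3 numbers (-0.13, -0.20 and -0.40). So was another such set of NDUFS1 (-0.15, -0.02 and -0.26). The third such set of ATP5O differed in sign between numbers, and that of NDUFS1 was higher in all 3. The labels do not say what a shared number stands for.

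**Figure D4:**
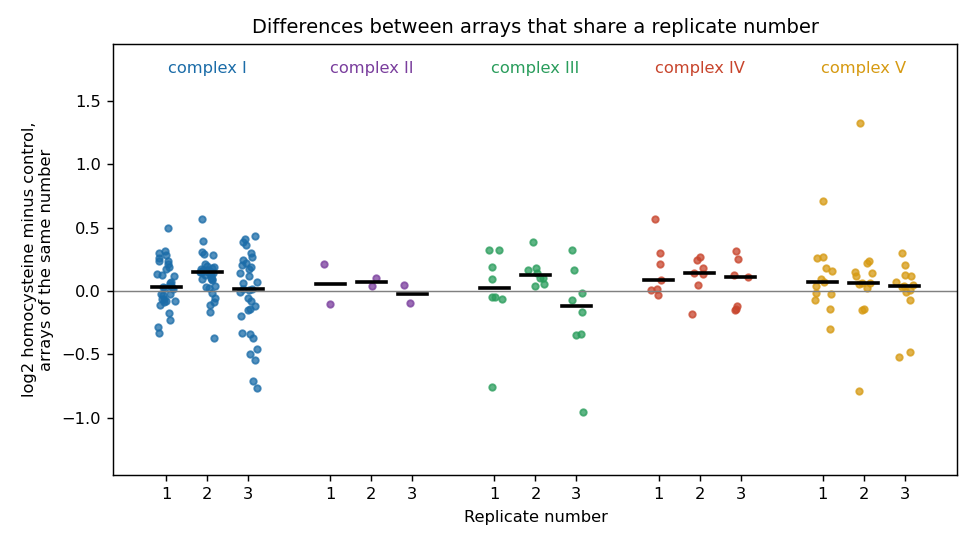
Log2 intensity with homocysteine minus control between arrays of the same number (1, 2 and 3 on the horizontal axis), for the 63 genes above background in complexes I to V; points are genes and bars are medians. The number 2 points lie mostly above 0, and ATP5E is the highest point at 1.33. In complex III the median differences for numbers 2 and 3 are 0.12 and -0.12 as deposited. They were 0.013 and -0.013 after centring each array, and 0.11 and -0.18 after quantile normalization.

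Different probe sets of a gene did not always tell the same story. Of the 65 genes, 35 had 1 probe set. In 18 genes at least 2 probe sets were above background on all 6 arrays, and in 10 of these the log2 changes had opposite signs, with a median range of 0.22 within a gene. The widest ranges were in ATP5J2 (-0.32 to 0.27), NDUFA11 (-0.34 to 0.15) and NDUFS1 (-0.14 to 0.26). The drop on the arrays numbered 1 also differed within a gene, by over 1 in log2 in both groups for 3 genes.

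NDUFS1 had 3 such probe sets. Besides the steady set given above, the second read 3037, 4907 and 4975 in control and 2744, 4846 and 4152 with homocysteine, with the arrays numbered 1 lowest. The third read 1145, 560 and 850 in control and 1190, 758 and 1042 with homocysteine, with the arrays numbered 1 highest. UQCR10 had a second set at 2120, 5261 and 5955 in control and 2219, 4880 and 6903 with homocysteine. It stood at 37.9% and 38.2% of the other arrays on those numbered 1, where the set given above stood at 90.4% and 88.8%. COX6C, a complex IV subunit, fell to 50.7% and 53.9% there in its brighter set and stood at 125% and 127% in its dimmer one. NDUFA7, an accessory subunit of complex I, stood at 87.9% and 79.5% in its brighter set and at 38.9% and 44.0% in the other. What a member does on the arrays numbered 1 therefore held for the probe set named, and not for every probe set of the gene.

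**Figure D5:**
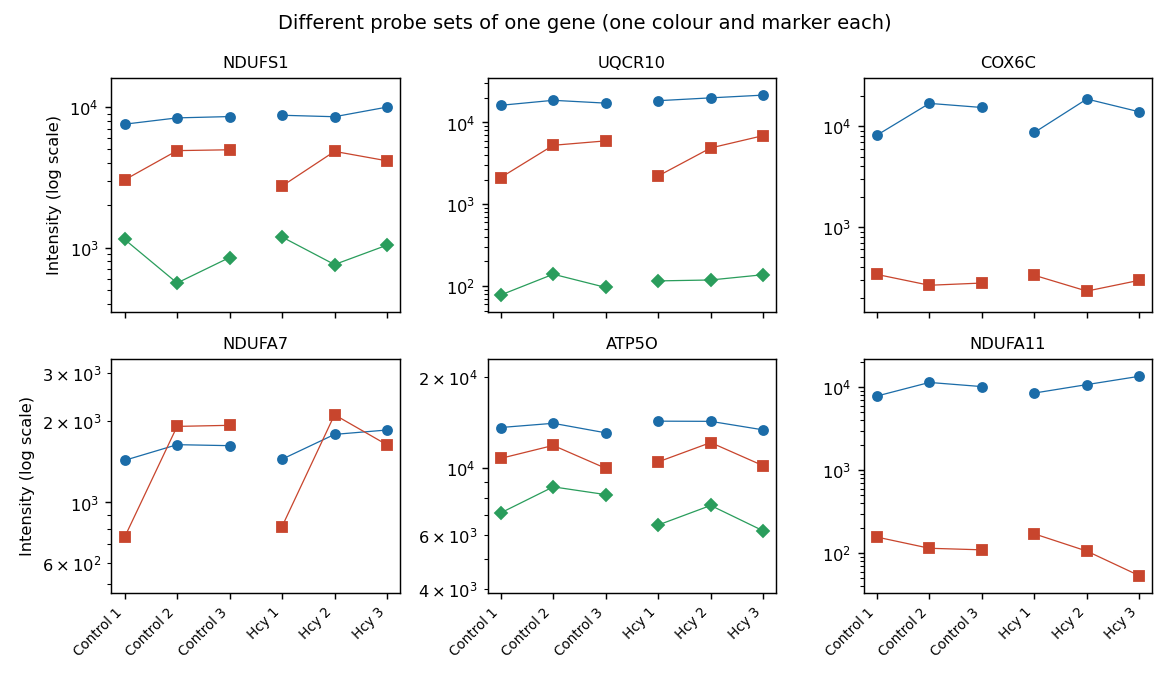
Intensity (log axis) of each probe set above background on all 6 arrays, for 6 respiratory chain genes, on control arrays 1 to 3 and homocysteine (Hcy) arrays 1 to 3; each colour and marker is a probe set. In NDUFS1, UQCR10, COX6C and NDUFA7 the arrays numbered 1 are low in some sets and not in others, while the 3 sets of ATP5O vary over a narrower range.

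Genes around the chain were taken from lists of its assembly, supply and regulation. None passed the threshold: 0 of 36 assembly factors (20 positive, 16 negative, median log2 change 0.01), 0 of 14 electron carriers and feeding dehydrogenases (6 positive, 8 negative, -0.01), 0 of 11 tricarboxylic acid cycle genes (5 positive, 6 negative, -0.03), 0 of 14 glycolysis genes (10 positive, 4 negative, 0.06) and 0 of 13 regulators of mitochondrial genes (8 positive, 5 negative, 0.06). Of the 9 regulators above background on all 6 arrays, 4 were positive and 5 negative, with a median of -0.05. The smallest unadjusted p of a list belonged to COX19, a copper-related assembly factor of complex IV (0.181), GPD2, the mitochondrial glycerol phosphate dehydrogenase (0.396), SUCLG1, a succinyl-CoA ligase subunit (0.495), HK2, a hexokinase (0.253), and SP1 (0.00344). HK2 was not above background on all 6 arrays, and the smallest unadjusted p by limma of the 13 glycolysis genes that were was 0.594. SP1, a general transcription factor, stood at 11.8, 24.7 and 16.8 in control and 49.4, 113 and 70.6 with homocysteine. It was above background on 2 arrays, both with homocysteine, and its adjusted p by limma was 0.689.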

How the data were processed

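The deposited table holds 1 intensity per probe set and array on a linear scale, made by the authors. RMA is the tool named, without a version, per the submitters' processing notes, yet the values were not on a log scale and their mean after trimming 2% at each end was 500.1 on every array. The labels name Cy3 and Cy5, and the values were treated as 1 channel. The analysis used log2 intensity as deposited, without a pseudocount or a new normalization. The 96 Affymetrix control sets and 57 reporter sets were left out of the tests.

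Groups and numbers came from sample titles. The platform annotation, some of it old, gave 1 symbol to 27168 probe sets, several to 177 and none to 11037. A probe set with COX7A2 and a second symbol was left out. RefSeq held the gene number of 64 members.

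Both groups entered a two-sided limma test (version 3.58.1, R 4.3.3, moderated by eBayes) without a block, with Benjamini-Hochberg adjustment over 38382 probe sets and a threshold of 0.05. Errors are SDs over 3 arrays, and parentheses after a change hold its 95% interval. The number of arrays and the spread between them limit the precision. So does eBayes, which draws each variance toward a value shared by all 38382 probe sets, dim ones included. ATP5O, with an SD within groups of 0.05 in log2, had an interval of -0.56 to 0.64. Over the 7925 genes above background no interval extended less than 0.594 above and below its change. The fit was tested on simulated data with independent errors and changes larger than those of the members above background. That test does not show how the fit handles changes as small as theirs, or arrays that vary together. Members, lists and tests were chosen with earlier results of these data known. Genes named by rule were complex II and core subunits, isoform families, those not above background, those with the widest range between probe sets, and per complex the extremes of change and spread. NDUFA4, NDUFA7, NDUFA13, NDUFS3, NDUFS7, NDUFS8, COX6C, ATP5C1, ATP5PB, UQCRQ and other members named without a change were picked after their values were seen. Sequences of promoters and proteins were not used here.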

Additional observations from a re-analysis of the deposited data

How the results depend on the processing

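No setting gave a probe set or a member past the threshold: 0 of each under every alternative, with 375 to 2107 probe sets at an unadjusted p under 0.05. With the replicate block 2023 probe sets were under 0.05 unadjusted, and COX7B had the smallest adjusted p of a member, 0.868. Same-numbered arrays deviated together with a correlation of 0.172, 0.108 and 0.0486 over all probe sets. By the size of this correlation the numbers were not taken to pair the samples, although each of the 6 arrays was closest to its own number. Over probe sets above background the correlation was 0.786, 0.703 and 0.332, and again each of the 6 arrays was closest to its own number. Over the 63 members it was 0.912, 0.819 and 0.330, with 5 arrays closest to their own number. Of the 38382 probe sets 14437 were above background on all 6 arrays, so the lower correlation that decided this includes many dim sets. The higher values are a hint of pairing from the data, which the test without a block leaves out. The block changed no call. At a threshold of 0.1 the count was also 0.

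The share of members with a positive change moved most. Centring each array gave 53.8% over all members, 57.6% in complex I, 0% in complex II and 50% in complex V. Quantile normalization gave 50% in complexes II and V. Over all 13009 genes the share was 41.4% with centring and 51.8% with quantile normalization. Averaging the probe sets of a gene gave 57.1% in complex V, a median change of 0.40 in complex II and a median SD of 0.47 in complex III. These averages include dim probe sets. The second SDHD set, with a log2 change of 1.53, was above background on 0 arrays, while the brighter set changed by 0.05. Without both arrays numbered 1 the share was 50% in complex II and 71.4% in complex V, and the median SD was 0.18 over all members, 0.10 in complex II, 0.16 in complex IV and 0.14 in complex V.

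Leaving out 1 array at a time, the share ran from 38.5% to 89.2% over all members, from 33.3% to 93.9% in complex I, at 50% in complex II each time, from 25% to 75% in complex III, from 37.5% to 100% in complex IV and from 57.1% to 85.7% in complex V. The median change ran from -0.059 to 0.22 in complex I, -0.15 to 0.21 in complex II, -0.17 to 0.19 in complex III, -0.14 to 0.32 in complex IV and 0.011 to 0.16 in complex V. Where 1 array numbered 1 was left out, the other stayed in its group. Most members were low on both, so the ranges here include that imbalance. For single genes whose log2 change turned sign, it ran from -0.12 to 0.28 for ATP5B, -0.073 to 0.087 for ATP5F1AZ, -0.14 to 2.25 for ATP5G2 (below background on 2 arrays), -0.18 to 0.37 for COX5A, -0.095 to 0.50 for COX6A1, -0.67 to 0.80 for COX8A, -0.019 to 0.32 for NDUFA11, -0.031 to 0.10 for NDUFA9, -0.075 to 0.56 for NDUFB6, -0.45 to 0.72 for NDUFB7, -0.75 to 0.42 for NDUFV1, -0.041 to 0.11 for SDHA, -0.42 to 0.44 for SDHD and -0.81 to 0.31 for UQCRFS1.

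Other turns of sign were ATP5O (-0.0084) and SDHA (-0.027) with quantile normalization, and ATP5O (-0.015), SDHA (-0.041) and SDHD (-0.0051) with centring. With the mean of all probe sets they were ATP5O (-0.11), COX5A (-0.0080), NDUFA11 (-0.22) and UQCRFS1 (0.19). The mean of UQCRFS1 includes a set above background on 3 arrays, and that of NDUFA11 includes sets above it on 1 and 0 arrays. Without both arrays numbered 1 the turns of sign were ATP5F1AZ (0.058), COX5A (-0.036) and SDHD (-0.029). Their cause was not tested. In the other 637 values direction and side of the threshold, or the size within the limits set, were kept.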
